A study of Homo sapiens with 4 samples.

Results

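The genes described here encode the main families of general splicing factors. They were 45 genes of the 19775 measured, chosen by symbol: those beginning with SRSF, HNRNP, SF3A or SF3B, together with U2AF1, U2AF2, SRRM1, SRRM2, TRA2A, TRA2B and PTBP1. Pseudogenes and the divergent transcript HNRNPD-DT were left out. The 45 comprised 10 SR proteins, 4 SR-related proteins, 20 hnRNPs with PTBP1 (hnRNP I) counted among them, 9 SF3A and SF3B subunits, and both U2AF subunits. Only probe sets annotated with a single gene symbol were used. SRSF2, SRSF9 and HNRNPH2 had only probe sets shared with another symbol and are therefore not members.

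Introns are removed by the spliceosome, whose U2 snRNP binds the branch point and is helped there by U2AF, which recognises the end of the intron. SF3A and SF3B are the protein complexes that make the U2 snRNP fit for this step. SR proteins carry domains rich in serine and arginine and mostly promote the use of nearby exons, while hnRNPs coat the transcript and often oppose them. Many of these genes limit their own output through exons or introns that send the transcript to decay.

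The cells were HCCLM3, an established human hepatocellular carcinoma line, sorted magnetically for the surface adhesion molecule EpCAM. The EpCAM-negative fraction was transfected with a miR-429 mimic, a duplex that supplies the microRNA, or with a control mimic of no named target (NC mimic), both at 100 nM. The EpCAM-positive fraction was given antagomir-429, a cholesterol-conjugated antisense RNA that blocks miR-429, or its control (NC antagomir), both at 40 µM. Cells were taken after 4 days, and each of the 4 groups was 1 sample on 1 array, so nothing below has a replicate check and no test could be made. The mimic and antagomir comparisons share no array, but they differ in the sorted fraction, the agent and the way it was delivered. A comparison of EpCAM-positive with EpCAM-negative control cells is also one of NC antagomir with NC mimic, and these cannot be told apart. It shares its NC mimic array with the mimic comparison and its NC antagomir array with the antagomir comparison.

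The microRNA added or blocked was miR-429. Its sequence and those of its relatives, taken from RefSeq (GRCh38.p14), are shown because the seed, bases 2 to 8 in capitals, decides which transcripts a microRNA of this family can pair with. miR-429 lies at chr1:1169055-1169076 on the plus strand.
hsa-miR-429: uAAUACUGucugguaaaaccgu
hsa-miR-200b-3p: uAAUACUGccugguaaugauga
hsa-miR-200c-3p: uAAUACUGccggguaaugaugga
hsa-miR-200a-3p: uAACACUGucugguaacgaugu
The first 3 share the seed AAUACUG, and miR-200a-3p has AACACUG. The transcript sequences of the splicing factors were not used here, so no site for this seed was looked for in them.

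All 4 arrays had been scaled to a trimmed mean signal of 500.1. Precision is limited by their number. The 3′ to 5′ signal ratio of the actin control was 3.41 with the NC mimic, 2.63 with the miR-429 mimic, and 3.12 and 3.07 in the antagomir pair. The poly-A spike-ins had a mean log2 signal of 12.02 with the NC mimic, 11.15 with the miR-429 mimic, and 11.58 and 11.66 in the antagomir pair. Their part in the mimic values below was not tested. The epithelial keratins KRT8 and KRT18 were bright on every array, the lowest of their signals being 28365, but ALB was under the detection floor on all 4 and AFP reached only 119. Of 9 measured hepatocyte markers 5 were at the floor on every array. EPCAM had a signal of 1106 on the EpCAM-negative and 1235 on the EpCAM-positive control array, and 3838 with the miR-429 mimic. Of 6 measured leukocyte genes 1 was at the floor on every array, PTPRC and CD14 were under it on all 4, and their signals summed to between 269 and 365. Of 4 endothelial genes 1 was at the floor on every array, with sums between 198 and 454. The 6 fibroblast genes summed to between 8130 and 11470, mostly COL1A1.

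Splicing factor transcripts differed little between the arrays. Each gene was represented by its brightest probe set, and 44 of 45 members reached the floor, a signal of 52.9 that is the median over all probe sets. The exception was SRSF12, an SR protein of restricted expression, with signals from 5.93 to 23.2 by the brighter of its probe sets. With the miR-429 mimic 0 of the 44 were at or past 2-fold in either direction. Over all 13180 expressed genes 5.25% were higher and 3.76% lower, or 692 and 496 genes, a split that became 549 and 628 with each array centred on its median. The members are bright, however, and among the 7162 genes at least as bright as HNRNPA3, the dimmest of them and a limit chosen after the values were seen, these shares were 1.4% and 0.293%. A count of 0 among 44 is thus near the background.

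The other comparisons gave the same count. With antagomir-429 0 members were past 2-fold in either direction, where 3.72% of all expressed genes were higher and 3.53% lower, and 0.154% and 0.0698% of the genes of like brightness. Between the control cells of the EpCAM fractions 0 members were past 2-fold, against 3.62% higher and 4.7% lower of all expressed genes and 0.531% and 0.419% of the brighter ones. Across all 4 arrays the highest and lowest signal of a member differed by a median of 1.29-fold, and by 1.36-fold for genes of like brightness.

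**Figure D1:**
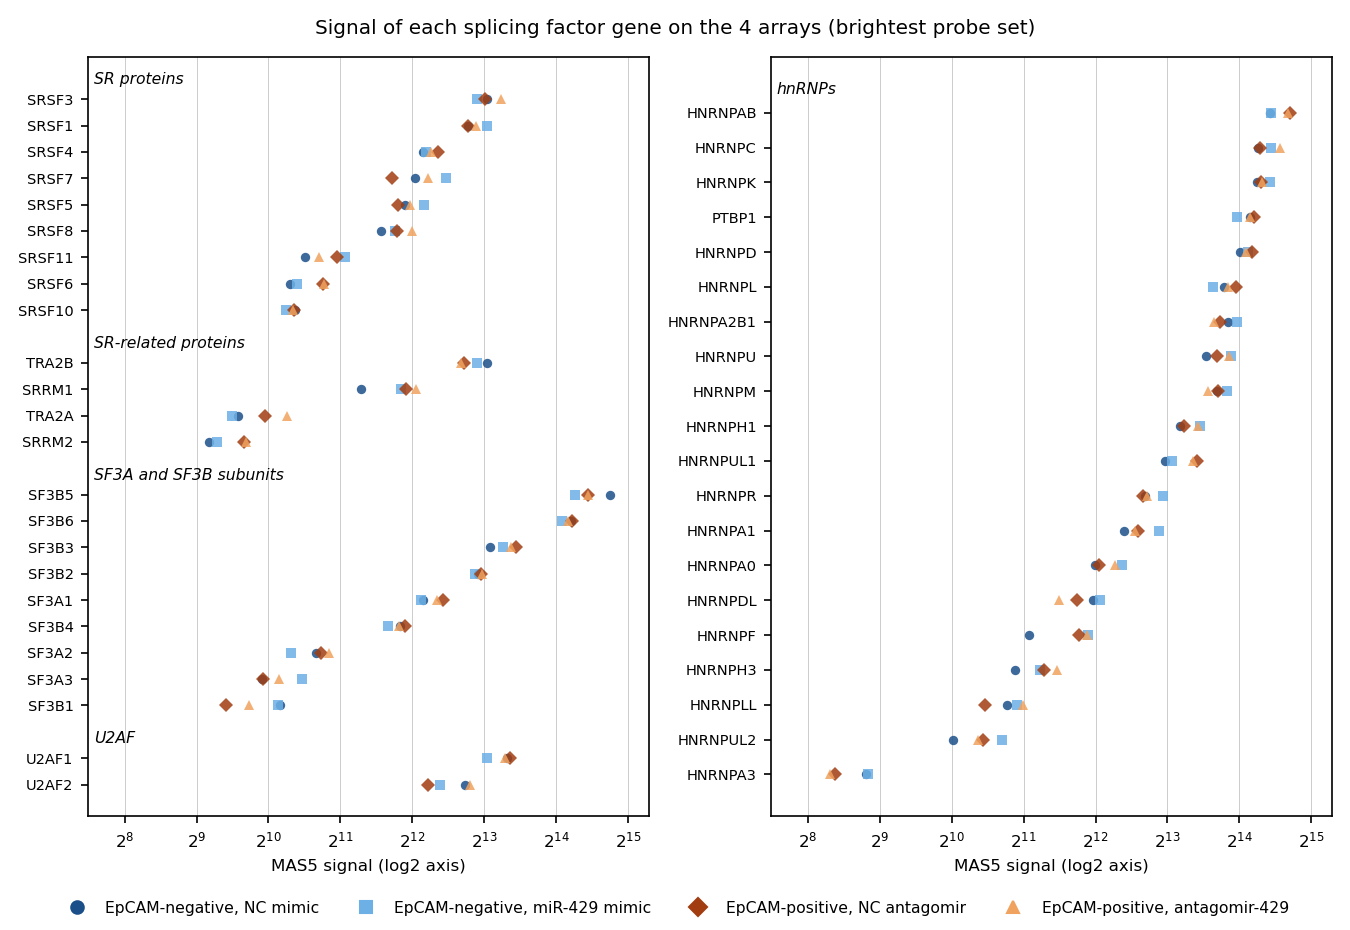
MAS5 signal on a log2 axis (horizontal) of the brightest probe set of 44 splicing factor genes, 1 point per array, grouped by class; distances between genes depend on the probes and are no comparison of abundance. The 4 points of most genes lie close together, and for HNRNPF (2163) and SRRM1 (2497) the NC mimic point lies apart to the left.

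Most members lay slightly above 0 with the mimic. The median log2 ratio over the 44 was 0.12, with 29 above 0 and 15 below, while the median over all expressed genes was 0.00 and 49.9% of them were above 0. Their robust SD (from the median absolute deviation) was 0.26, and that of genes of like brightness 0.42. With each array centred on its median the members had 0.01 and all genes -0.11. After quantile normalization they had 0.18 and -0.03. Against the NC antagomir array the members had 0.04 and all genes 0.01, with 22 members on each side of 0, so the members' place above 0 depended on the control array. With antagomir-429 the members' median was 0.01, with 24 above 0 and 20 below, and the centred value was -0.02. Between the control arrays it was 0.05, with 31 above 0 and 13 below.

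**Figure D2:**
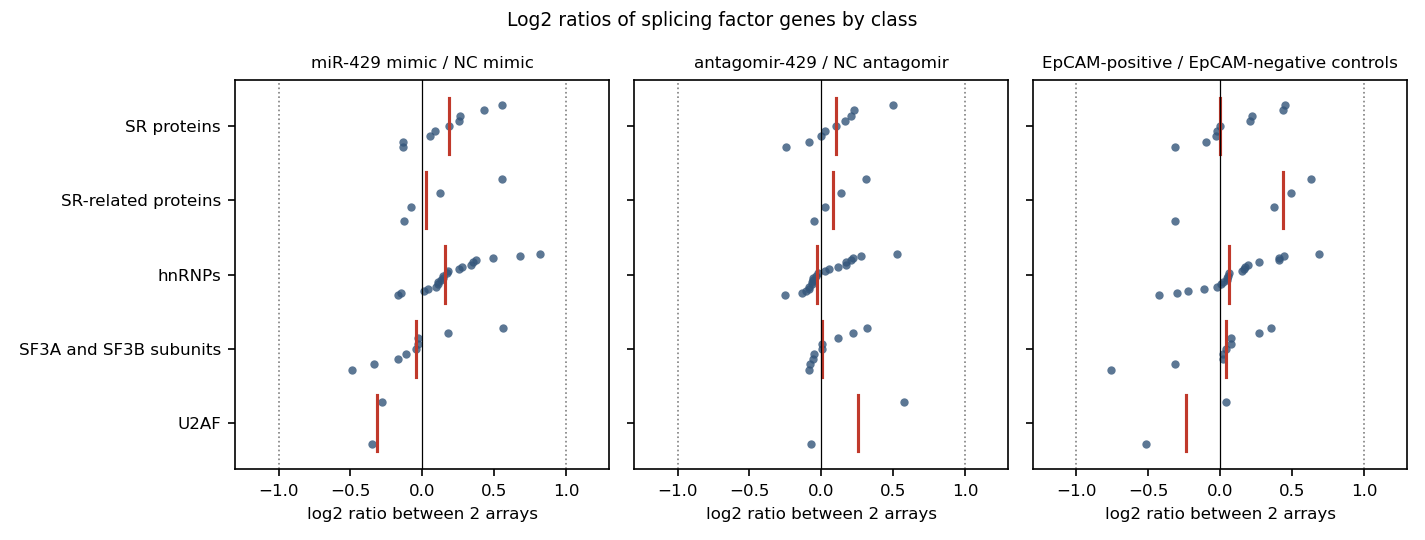
Log2 ratios (horizontal) of 44 splicing factor genes by class in the 3 comparisons, 1 point per gene, with the class median as a red bar and dotted lines at 2-fold. All points lie inside the lines, and with the mimic 18 of 20 hnRNPs lie above 0, and 7 of 9 SF3A and SF3B subunits and both U2AF subunits below.

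The array that was lowest for a member was often the NC mimic array. It gave the lowest of the 4 signals for 21 of 44 members (47.7%), against 27.8% of all expressed genes, and the highest for 4 (9.09%), against 29.6%. The miR-429 mimic array gave the lowest signal for 12 members, the NC antagomir array for 6 and the antagomir-429 array for 5. For the larger mimic values that rest on a low NC mimic signal, the ratio to the NC antagomir array is given as well. That control differs in sorted fraction and agent.

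The SR proteins had a median log2 ratio of 0.18 with the mimic, with 7 of 9 expressed members above 0. With antagomir-429 the median was 0.10, with 6 of 9 above 0. Against the NC antagomir array the mimic median was -0.04, with 4 of 9 above 0, so its direction depended on the control array.

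SRSF1, the founding SR protein and a known oncoprotein, had signals of 7030 with the NC mimic, 8397 with the miR-429 mimic, 7030 with the NC antagomir and 7558 with antagomir-429. Both treated arrays stood slightly above their controls, with log2 ratios of 0.26 and 0.10. Of its other 4 probe sets at the floor 3 gave 0.17 to 0.29 with the mimic, but 226419_s_at had 216 and 129 (-0.74). SRSF3, the smallest of the family and a regulator of its own splicing, had 8391 and 7643 in the mimic pair (-0.13) and 8225 and 9635 in the antagomir pair (0.23).

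SRSF11 is the SR protein with the largest ratio to the mimic. Its signals were 1458 with the NC mimic and 2143 with the miR-429 mimic, then 1977 with the NC antagomir and 1671 with antagomir-429. The mimic log2 ratio was 0.56 or 1.47-fold, and 0.12 against the NC antagomir array. With antagomir-429 it was -0.24, the lowest among SR proteins. Its second probe set at the floor had the same directions, 0.88 and -0.28, and a mimic ratio of 0.60 against the NC antagomir array.

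SRSF7, which also acts in RNA export, was higher in both treated samples. Its signals were 4214 and 5672 in the mimic pair (0.43) and 3383 and 4777 in the antagomir pair (0.50, or 1.41-fold). The lowest of the 4 was the EpCAM-positive control. Of its other 3 probe sets at or above the floor, 2 had the same direction in both pairs (0.26 and 0.35, 0.18 and 0.41), and the dimmest had 0.15 and -0.56.

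SRSF6 had 1263 and 1342 in EpCAM-negative cells and 1725 and 1753 in EpCAM-positive cells. The 2 fractions did not overlap by this probe set, with a control ratio of 0.45. By its other probe set, with 668, 799, 843 and 690, they did. By their brightest probe sets 15 of the 44 members had both EpCAM-positive arrays above both EpCAM-negative ones (34.1%, against 17.2% of all expressed genes) and 5 had them below (11.4% against 18.9%). The NC mimic array, often the lowest for members, is 1 of the 4.

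SRSF10, a splicing factor that is activated by dephosphorylation, had signals between 1209 and 1327 by its brightest probe set. Its second probe set gave 1006, 885, 700 and 1244, an antagomir ratio of 0.83, so the probe sets of SRSF10 differed there. SRSF4, SRSF5 and SRSF8 had log2 ratios between -0.10 and 0.26 in all 3 comparisons by their brightest probe sets, while a dim one of SRSF8 gave -0.81 with the mimic.

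Among the SR-related proteins SRRM1 had the largest mimic ratio. SRRM1, a coactivator that bridges factors bound to exons, had 2497 with the NC mimic and 3669 with the miR-429 mimic (0.55), and 3862 and 4239 in the antagomir pair (0.13). The NC mimic array was the low one, and against the NC antagomir array the mimic ratio was -0.07. Its second probe set had 529, 628, 718 and 754 in the same order, again lowest with the NC mimic.

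SRRM2, a large scaffold of nuclear speckles, had 575 and 626 in EpCAM-negative cells and 810 and 823 in EpCAM-positive cells by its brightest probe set. TRA2A, a splicing activator of the transformer family, likewise had 762 and 723 against 987 and 1226. For both the EpCAM fractions did not overlap by these probe sets, with control ratios of 0.49 and 0.37. A dim probe set of TRA2A gave -0.47, and its direction between the controls thus depended on the probe set. TRA2B, the paralog of TRA2A, went the other way, with 8399 and 7675 in EpCAM-negative and 6759 and 6519 in EpCAM-positive cells (-0.31). Its other probe sets at the floor gave 0.12 and 0.10 there, and 0.35 and 0.36 with the mimic where the brightest gave -0.13, so the direction of TRA2B did so too.

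The hnRNPs lay mostly above 0 with the mimic, at small size. Of 20 expressed members 18 were above 0, with a median of 0.16, where 47.3% of genes of like brightness were above 0. With centring 15 were above 0 (median 0.05), with quantile normalization 17 (0.29), and against the NC antagomir array 14 (0.18). With antagomir-429 the class had 9 above 0 and 11 below, and a median of -0.03.

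HNRNPF, which binds runs of guanines, had the largest mimic ratio of all members. Its only probe set gave 2163 with the NC mimic, 3815 with the miR-429 mimic, 3486 with the NC antagomir and 3773 with antagomir-429. The log2 ratio was 0.82 or 1.76-fold with the mimic, 0.11 with the antagomir and 0.69 between the controls. The NC mimic array alone was low, and against the NC antagomir array the mimic ratio was 0.13.

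HNRNPUL2, a relative of the nuclear matrix protein HNRNPU, followed with 1040 and 1669 (0.68), and 1380 and 1319 in the antagomir pair. Its other probe set, of nearly the same mean signal, gave 1048 and 1075 (0.04), so the probe sets of this gene did not show the same difference. They gave 0.27 and 0.37 against the NC antagomir array. HNRNPA1, a silencer of exons with many processed pseudogenes, had 5389 and 7578 (0.49) and 6166 and 6016 (-0.04) by a probe set of the kind that can bind related transcripts. Its mimic ratio to the NC antagomir array was 0.30 by this probe set. The other probe set of HNRNPA1 at the floor, 222040_at, was dim and did not show the same differences. It gave 0.06 with the mimic, 0.66 with the antagomir, and 0.34 for the mimic against the NC antagomir array.

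Several well-known hnRNPs differed little. HNRNPK, which binds runs of cytosines, had signals between 19462 and 21930 on the 4 arrays. HNRNPA2B1, also a reader of RNA in microRNA processing, had 14701 and 16084 (0.13), and 13604 and 12796 (-0.09). PTBP1, the repressor of neuronal exons, was one of 2 hnRNPs below 0 with the mimic, at 18062 and 16048 (-0.17), although its dim probe set gave 0.30. The other was HNRNPL, which binds CA repeats (-0.15).

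With antagomir-429 HNRNPLL, a regulator of the splicing of CD45 in lymphocytes, had the highest hnRNP ratio, 0.52, from signals of 1410 and 2029. Its EpCAM-negative signals were 1739 and 1925, so the EpCAM-positive control was the low array. Its other probe sets at or above the floor gave -0.37 and 0.15. HNRNPDL had the lowest ratio of all members, -0.25, from 3421 and 2867, though its 5 probe sets at the floor ranged from -0.25 to 0.27. Among hnRNPs HNRNPM and HNRNPL followed with -0.13 and -0.11.

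Between the control cells the largest hnRNP differences after HNRNPF were HNRNPUL1 at 0.45 and HNRNPA3 at -0.43. HNRNPUL1 had 7964 and 8587 in EpCAM-negative and 10845 and 10448 in EpCAM-positive cells. HNRNPA3 had 446 and 458 against 332 and 317. Neither set of signals overlapped between the fractions. The second probe set of HNRNPUL1, with 483, 647, 698 and 605, did overlap, and of the dimmer ones of HNRNPA3 1 gave -0.50 and the other 0.26.

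SF3A and SF3B subunits had a median of -0.05 with the mimic, with 7 of 9 below 0. Quantile normalization left 5 below 0 (median -0.02) and the median over all probe sets of a gene turned the class median to 0.02. It was -0.15 with centring, where all genes had -0.11, and -0.17 against the NC antagomir array. By the brightest _at probe set without _s or _x it was -0.12. The direction thus depended on how probe sets were combined, and its size on the processing. With antagomir-429 the median was 0.00.

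SF3B5, a small SF3B subunit, had the lowest mimic ratio of the members, -0.49, from 27636 and 19685. The EpCAM-positive arrays lay between, at 22268 and 22338, with a ratio of 0.00. SF3A2 had 1614 and 1277 (-0.34), then 1698 and 1839 (0.11). SF3A3 went the other way, with 960 and 1419 (0.56 or 1.48-fold), then 974 and 1137 (0.22), and the miR-429 mimic array was its highest. Its mimic ratio to the NC antagomir array was 0.54.

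SF3B1, the large subunit that holds the branch point and is often mutated in blood cancers, had the lowest ratio of all members between the controls. Its brightest probe set gave 1149 and 1124 in EpCAM-negative cells and 680 and 849 in EpCAM-positive cells, so the fractions did not overlap. The control log2 ratio was -0.76, or 1.69-fold lower in EpCAM-positive cells. The mimic ratio was -0.03 and the antagomir ratio 0.32. SF3B2, by contrast, was the steadiest member of all, with signals between 7505 and 7996.

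U2AF2, the large U2AF subunit that binds the polypyrimidine tract, was the only member with ratios of at least 0.3 in size and opposite sign in the 2 treatments, a limit set after its values were seen. Its brightest probe set had 6835 and 5355 with the mimic (-0.35), and 4775 and 7125 with the antagomir (0.58, the highest ratio of any member there). The NC antagomir array gave the lowest signal of this probe set, and against it the mimic ratio was 0.17. The opposite signs thus depended on the control array. The second probe set gave 865 and 731 (-0.24), but 917 and 766 in the antagomir pair (-0.26), so it did not share the higher antagomir signal. U2AF1, the small subunit that contacts the last bases of the intron, had 10206 and 8411 (-0.28), and 10491 and 9982 (-0.07).

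Of the 44 members 7 (15.9%) were below 0 in the mimic pair and above 0 in the antagomir pair, against 23.1% of all expressed genes. The reverse held for 12 (27.3%), against 22.0%. Both ratios were above 0 for 17 (38.6%, against 27.9%) and below 0 for 8 (18.2%, against 27.0%).

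Probe sets of the same gene often gave different ratios, mostly where they were dim. The 45 genes had 162 single-symbol probe sets, of which 122 reached the floor, and 38 genes had at least 2 of these. In the mimic comparison the log2 ratios of 8 of these 38 genes spanned 1 or more, that is 2-fold, or 21.1% against 25.5% of all 5837 genes with as many probe sets. For the antagomir the count was 10 (26.3% against 23.2%) and between the controls 5 (13.2% against 26.8%). With probe sets under a signal of 266 left out, 29 genes could be compared and the counts were 2, 0 and 0. The share over all genes under this limit is not given here. Over all single-symbol probe sets at the floor, 20.2% with a mean log2 signal under 8 were past 2-fold with the mimic, and 4.36% from 8 to 10.

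**Figure D3:**
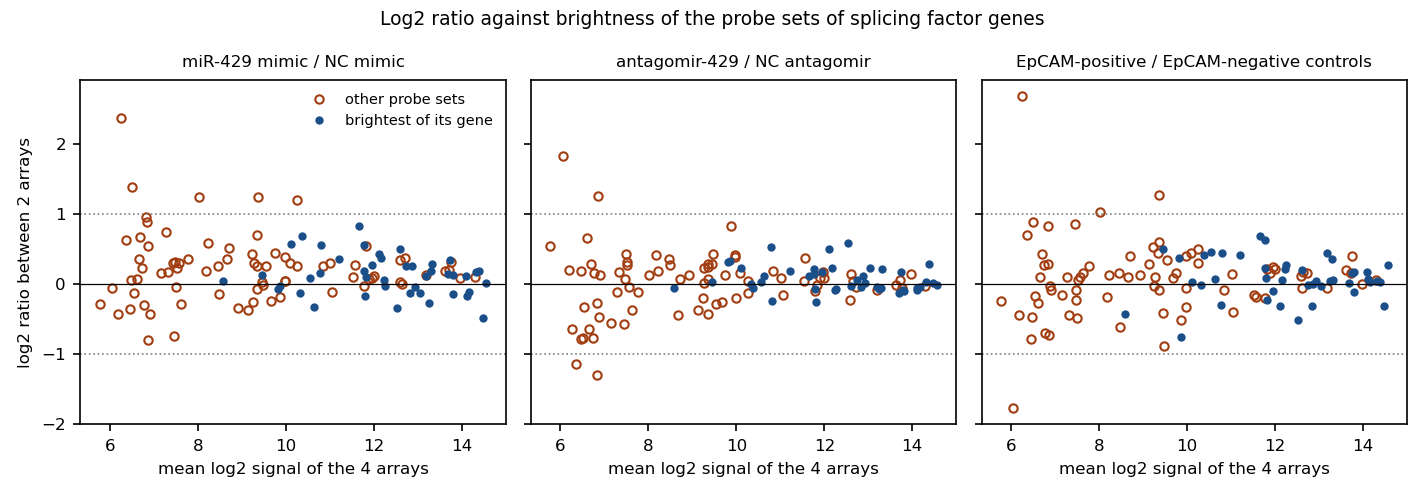
Log2 ratio (vertical) against the mean log2 signal of the 4 arrays (horizontal) for 122 probe sets of splicing factor genes, in the 3 comparisons. Filled points are the brightest probe set of each gene and open points the others, and all points past the dotted 2-fold lines are open.

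Scatter was smaller among brighter probe sets. In the dimmest bin, 30 member probe sets with a mean log2 signal under 8, the median size of the log2 ratio was 0.33 with the mimic, 0.40 with the antagomir and 0.28 between the controls. In the brightest, 37 probe sets at or above 12, it was 0.17, 0.07 and 0.15. Over all single-symbol probe sets the brightest bin had 0.28, 0.08 and 0.16. The direction of the bright probe sets differed with the mimic: the members' median was 0.11, and that of all such probe sets -0.16.

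Of the 122 probe sets 5 lay at or past 2-fold above 0 in the mimic pair and 0 below, against 6.61% and 4.14% of all single-symbol probe sets at the floor. With the antagomir 2 were higher and 2 lower (background 4.32% and 4.1%), and between the controls 3 and 1 (4.82% and 5.23%). With signals under the floor set to it, the antagomir counts were 1 and 2 and the control counts 3 and 0, because 213359_at of HNRNPD no longer reached 2-fold. The shares over all single-symbol probe sets were then 2.76% and 2.6% with the antagomir, and 3.3% and 3.68% between the controls. The 9 member probe sets past 2-fold without this limit belong to 9 genes, and none is the brightest of its gene.

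SF3B1 shows how a single probe set can oppose the rest. Between the controls the other 4 probe sets at the floor were all lower in EpCAM-positive cells (-0.76, -0.88, -0.79 and -0.45), while 201070_x_at gave 0.82. This probe set had signals of 91.1 with the NC mimic, 177 with the miR-429 mimic, 161 with the NC antagomir and 64.8 with antagomir-429. Its ratios of 0.95 and -1.31 stood against -0.44 to -0.01 and 0.18 to 0.42 for the others. The 4 agreeing probe sets included both bright ones.

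SRRM2 had a bright probe set among those past 2-fold. 207435_s_at gave 370 with the NC mimic and 874 with the miR-429 mimic (1.24 or 2.36-fold), then 889 and 657. The brightest probe set, of nearly the same mean signal, gave 575, 626, 810 and 823, and 1554671_a_at gave 131, 96.3, 123 and 134. The NC mimic array was the low one for the probe set past 2-fold, which gave -0.02 against the NC antagomir array, and only the EpCAM-positive arrays were the higher ones for the brightest.

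HNRNPDL, which is related to HNRNPD and is spliced into several forms, followed the same pattern. 209068_at gave 144 with the NC mimic and 339, 293 and 321 on the other arrays, a mimic ratio of 1.24 and a control ratio of 1.03. The 4 brighter probe sets gave mimic ratios between -0.12 and 0.10 and control ratios between -0.41 and -0.20, so they lay on the other side of 0 between the controls. The NC mimic array was the low one for 209068_at, whose mimic ratio against the NC antagomir array was 0.21.

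HNRNPU, a scaffold of chromatin and RNA, had 22.3, 115, 143 and 91.7 by 225805_at. The first of these lies under the floor, and the difference was at least 2.18-fold higher with the mimic. Against the NC antagomir array the mimic ratio of 225805_at was -0.32. The brighter probe sets of HNRNPU gave 0.34 and 0.54 in the mimic pair. HNRNPM, which promotes exon skipping in mesenchymal cells, had 60.2, 158, 111 and 65 by 214918_at, with ratios of 1.39 and -0.77. The mimic ratio of 214918_at to the NC antagomir array was 0.50. The 2 bright probe sets of HNRNPM gave 0.14 and 0.12 with the mimic. Of its further ones 233605_x_at gave 0.22 and 1555843_at 0.74, or 0.17 and 0.65 against the NC antagomir array. HNRNPH3 had 856 and 1964 by 210110_x_at (1.20, or 0.70 against the NC antagomir array). Its other 3 probe sets, 1 of the same mean signal, gave 0.04 to 0.35 in the mimic pair.

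In the antagomir pair HNRNPD, known as AUF1 for its role in mRNA decay, had a wide range that rests on a signal under the floor. By 213359_at it had 90.6, 87.2, 26.4 and 93, at least 1.76-fold higher with antagomir-429. Its other 5 probe sets at the floor gave between -0.20 and 0.05. HNRNPA2B1 had 115 and 51.7 by 225107_at, at least 2.17-fold lower, against -0.09 and 0.37. SF3B2 had 66 and 157 by 1558230_at (1.25), against 0.00 for its bright probe set. TRA2A had 0.31 by its bright probe set and -0.64 by a dim one. A further one had 85.6 and 49.4, the latter under the floor, at least 1.62-fold lower.

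**Figure D4:**
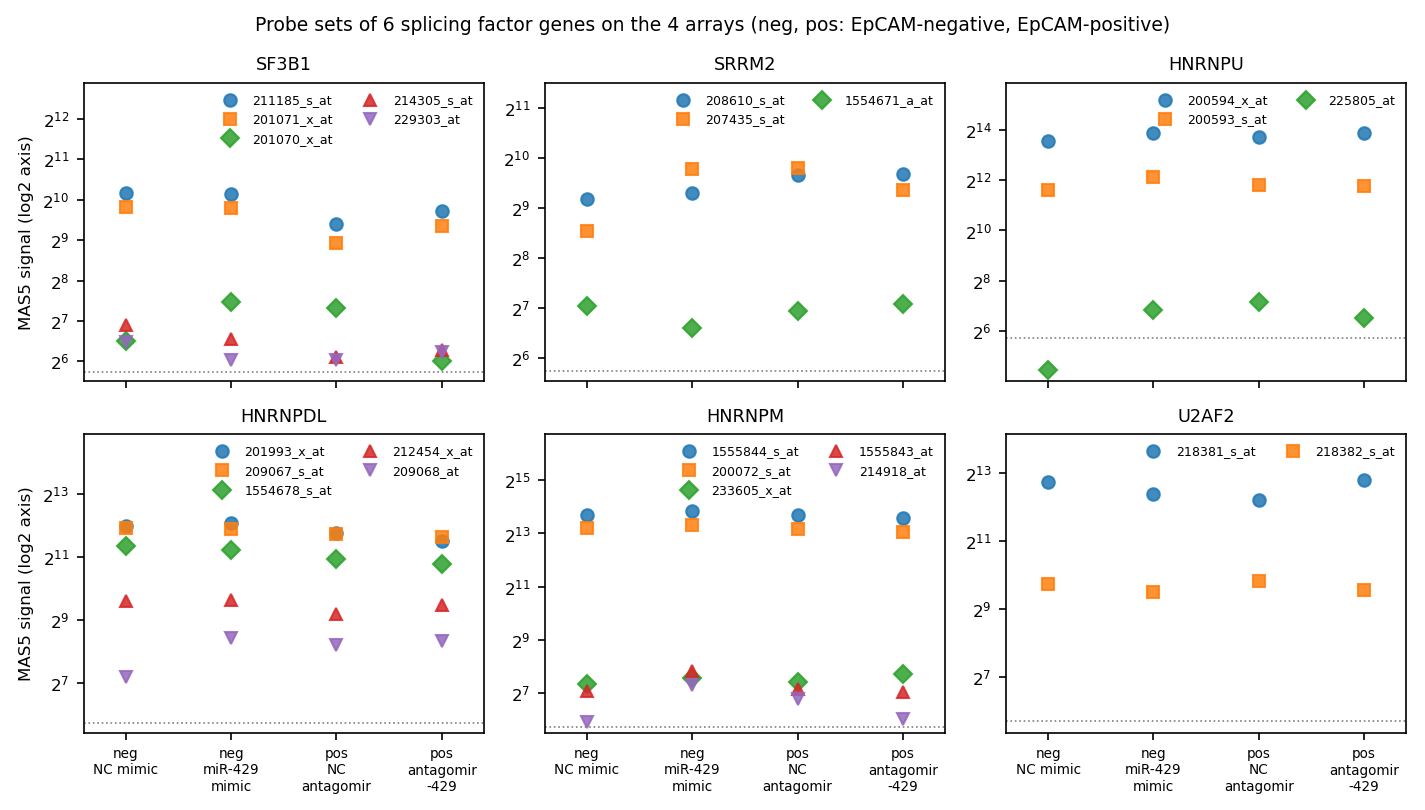
MAS5 signal on a log2 axis (vertical) of the probe sets at or above the floor (dotted line) of 6 splicing factor genes on the 4 arrays (horizontal), 1 marker shape per probe set. The brightest probe sets of HNRNPU, HNRNPDL and HNRNPM span 1.27-fold, 1.49-fold and 1.2-fold over the 4 arrays. 225805_at of HNRNPU lies at 22.3 on the NC mimic array.

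The rest of the splicing machinery was read from 7 further lists. Of 146 genes listed 134 had a single-symbol probe set and 129 of these were expressed. In the mimic pair 6 lay at or past 2-fold above 0 and 1 below (4.65% and 0.775%), with the antagomir 0 and 0, and between the controls 2 and 1 (1.55% and 0.775%). The medians were 0.01, 0.04 and 0.01. Of all expressed genes 5.25% and 3.76%, 3.72% and 3.53%, and 3.62% and 4.7% lay past 2-fold in the same order. The higher share of the listed genes with the mimic was thus near that of all expressed genes, and their other shares were lower. The listed genes were not matched in brightness, and of genes as bright as the members 1.4% were higher and 0.293% lower with the mimic.

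The Sm and LSm proteins, small subunits that form the rings on the spliceosomal RNAs, all lay below 0 with the mimic. The 15 expressed genes had ratios from -0.42 to -0.07, with a median of -0.29. Of genes as bright as the members 52.7% were below 0, and all probe sets with a mean log2 signal of 12 or more had a median of -0.16. LSM4 had 24852 and 18557, and SNRPB 27024 and 20204, both -0.42. With the antagomir 8 of 15 were below 0 (median -0.04). Against the NC antagomir array 13 of 15 were below 0 with the mimic (-0.23), and after quantile normalization 12 (-0.20).

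The kinases and importers of SR proteins, which set where these proteins work in the cell, had a mimic median of 0.55 over 9 expressed genes, but 0.06 against the NC antagomir array. DYRK1A had 293 and 564 (0.94) and SRPK1 288 and 515 (0.84). CLK4 differed between the controls, with 57.4 and 125 (1.13), and CLK1 in the antagomir pair, with 223 and 125 (-0.83). The EpCAM-positive control was itself above the NC mimic array for DYRK1A, at 551, and against it the mimic ratio was 0.03. For SRPK1 it was 0.63.

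In the U1 and U2 snRNP list the mimic median was -0.02 over 19 genes. PRPF40B, a U1-associated protein, was at least 2.8-fold higher, from 37.1 under the floor to 148. SUGP1, which interacts with SF3B1, had -0.80 with the antagomir, from 960 and 551. In the U4/U6 and U5 list no gene was past 2-fold, with medians of 0.00, -0.01 and 0.12 in the order mimic, antagomir, controls. USP39, a tri-snRNP protein, had 797 and 1193 (0.58, but -0.01 against the NC antagomir array), and PRPF8, the core of the U5 snRNP, 4090 on the NC mimic and 6322 on the NC antagomir array (0.63).

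In the Prp19 and catalytic list the mimic median was -0.08 over 22 genes. PRPF18, a factor of the second step, had 238 and 85 (-1.49), and the helicase DHX35 177 and 364 (1.04), with 382 on the NC antagomir array. The other probe set of DHX35 was at least 1.44-fold lower with the mimic. The exon junction and nonsense-mediated decay list had a median of 0.02 over 10 genes. SMG6, the endonuclease of that decay, had 58.4 and 120 (1.04), and UPF2, which bridges its core factors, 61.6 and 126 (1.03), all close to the floor.

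The other splicing regulators had a mimic median of 0.27, with 28 of 36 above 0. RBM4 had 155 and 343 (1.15) and CELF2 183 and 373 (1.03), with 0.54 and 0.51 against the NC antagomir array, though another probe set of CELF2 was at least 1.51-fold lower. Against the NC antagomir array the median was 0.19, with 24 above 0. With the antagomir it was 0.09, and none was past 2-fold. PTBP3, a paralog of PTBP1, had 393 on the NC mimic and 191 on the NC antagomir array (-1.04) by its brightest probe set, and 1.04 by another.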

How the data were processed

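Total RNA of 4 HCCLM3 samples was measured on Affymetrix 3′ expression arrays, 1 per group. The deposited values are log2 signals, and the submitters' processing notes name MAS5 for them, with its version and target level not given in the sources used here. Log base and scaling follow from the values: the mean signal without the 2% at each end was 500.1 on every array. No further scaling was applied. Platform annotation, which can be old, gave 41091 non-control probe sets a single symbol, of which 41037 matched RefSeq gene identifiers (GRCh38.p14, used for names only). A gene was its brightest single-symbol probe set by mean log2 signal, expressed at or above the median of all non-control probe sets. Differences are log2 ratios between single arrays with no offset. A fold with 1 array under the floor uses the floor in its place and is a lower bound. No test, standard error or p-value was computed, since each group had 1 array. The counting code was tested on simulated data.

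Members and lists were chosen with earlier results of these data known. Members named were a standing set of 12 (SRSF1, SRSF2, SRSF3, TRA2B, SRRM2, HNRNPA1, HNRNPA2B1, HNRNPK, PTBP1, SF3B1, U2AF1 and U2AF2, of which SRSF2 had no probe set of its own and is not a member), the 5 highest and 5 lowest ratios per comparison, the 6 widest probe set ranges per comparison, and members past 2-fold; from each further list, up to 4 past 2-fold or else the 2 largest. Other members are named for completeness after their values were seen. Alternatives were an offset of 5.97 signal units, centring or quantile normalization, filters, other probe set choices and the other control array. Python 3.11.15, numpy 2.4.6 and pandas 2.3.3 were used.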

Additional observations from a re-analysis of the deposited data

How the results depend on the processing

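No paired analysis was possible because each group is a single array, and for the same reason no replicate could be left out. The count of 0 members past 2-fold held in each comparison under centring, quantile normalization, the offset and the filter at a signal of 266. Without a filter SRSF12 entered, giving 1 lower member with the antagomir, where 2412 of all 19775 genes were lower. The median over all probe sets of a gene gave 1 higher member with the mimic, U2AF2, where 800 of all 13180 genes were higher. The 2 probe sets of U2AF2 at the floor were both below 0 there (-0.35 and -0.24). The brightest plain _at probe set gave 4 higher and 3 lower of 44 members with the mimic, 1 and 2 with the antagomir, and 5 and 1 between the controls. Over all 13180 genes this choice gave 990 and 749, 760 and 764, and 804 and 878 in the same order. Of the members' 7, 3 and 6 probe sets past 2-fold, 5, 2 and 4 lay under the floor. With the stricter filter the members whose probe sets spanned 2-fold numbered 2, 0 and 0 in place of 8, 10 and 5. Fewer probe sets were compared there, and no share over all genes is given for this filter. Leaving out _x_at probe sets kept these counts within 1.5 times. With the NC mimic array as control the antagomir median was 0.17. Of 713 recomputed values of the 31 named members, 83 moved past the robust SD of genes in their quartile of brightness, all under another probe set choice or control array. What limits the reading is the single array per group, and signal near the floor for dim probe sets.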

Other observations

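Some further splicing regulators are described here as values, chosen after their values were seen. QKI, an RNA-binding regulator of splicing and circular RNA formation that is known as a target of the miR-200 family, was higher with the miR-429 mimic by all 5 of its probe sets at the floor, with log2 ratios from 0.41 to 1.14. Against the NC antagomir array these 5 gave 0.09 to 0.97, and the highest of the first set, 1.14, became the 0.09. Its brightest gave 1203 with the NC mimic, 1934 with the miR-429 mimic, 1566 with the NC antagomir and 1550 with antagomir-429, so the miR-429 mimic array was the highest and the antagomir pair was level (-0.01). CELF1, which binds GU-rich sequence, had 3147 and 4970 (0.66, or 0.17 against the NC antagomir array), then 4413 and 5164 (0.23). Its 5 brightest probe sets lay above 0 with the mimic and the 2 dimmest below, 1 of them at -0.65 and the other at least 2.15-fold lower.

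The epithelial splicing regulator ESRP1 lay under the floor by its probe sets, and ESRP2 had only a probe set shared with another symbol. MBNL3, a muscleblind protein, was the lowest of the other regulators with the mimic, at 290 and 167 (-0.80), and had 197 and 234 in the antagomir pair. SUGP1 had a second probe set with 128, 481, 259 and 51.8 in the order NC mimic, miR-429 mimic, NC antagomir and antagomir-429. Its mimic ratio of 1.91 stood against -0.24 by the brighter probe set, and the antagomir fold was at least 4.89-fold lower against 1.74-fold lower.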
